A study of Rattus norvegicus with 20 samples.

Results

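Fish oil and soy oil were compared on a tofu background in the livers of rats, as the difference between the group fed tofu with fish oil (TF) and the group fed tofu with soy oil (TS). The samples were chosen by their diet labels, 5 TF and 5 TS rats of 20 in the series, and every probe set other than the array controls with at least 3 values in each group was tested, 31039 in all. The other 10 rats had casein with soy oil (CS) or casein with fish oil (CF), 5 in each. All were male Sprague-Dawley rats, obtained at 4 weeks of age and fed for 21 days on diets with 200 g/kg of protein and 150 g/kg of fat. In TF the fat was 50 g/kg of fish oil and 100 g/kg of soybean-derived fat, and in TS it was 150 g/kg of soybean-derived fat. Both TF and TS received freeze-dried tofu with some casein as the protein, so that their difference is between oils within a tofu diet. Each array carried the liver RNA of a single rat, and animals at the extremes of food intake had not been put on arrays. Names such as TF-3 join the group of a rat to its labelled number.

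The liver burns fatty acids in mitochondria and peroxisomes after they have been joined to coenzyme A and, for entry into mitochondria, passed through carnitine. The nuclear receptor PPARα, which fatty acids and the long-chain ω-3 fatty acids of fish oil can bind, turns on many genes of this pathway, among them acyl-CoA thioesterases, β-oxidation enzymes, carnitine acyltransferases and the CYP4A ω-hydroxylases. Genes of fatty acid synthesis are in turn controlled by SREBP-1c and ChREBP, and polyunsaturated fatty acids are known to lower several of them.

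Expression is given as a z score of the log signal of a probe set in a rat, where 0 lies near the middle of the signals of an array. A difference of 0.2 in z stands for a 1.41-fold difference on this scale, and folds are given only where both group means exceeded 0.022, the highest median of an array. For a gene with a lower mean only the difference in z is given, because background was not measured in these values. Each gene stands for its brightest probe set by the mean of the 20 arrays, which gave 14217 genes. In liver tissue, fewer cells of a type and less RNA per cell cannot be told apart. The 10 hepatocyte markers had mean z scores of 1.34 to 3.57. In 6 exact permutation tests between TF and TS of array medians, spreads, correlations and 3′ to 5′ differences of the controls, the lowest adjusted p was 0.702. Rats TS-1 and TF-3 had a low 5′ β-actin control, 1.41 and 1.30 in z against 1.86 to 2.12 in the other 8, and TS-7, TF-4 and TF-5 were the least correlated with the other arrays.

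Among the genes called higher in TF, 4 were in the list of thioesterases, 2 in mitochondrial β-oxidation, 5 in peroxisomal oxidation and growth, 2 in ω-oxidation and 1 in other PPARα targets, with 2 of the peroxisomal genes also in the carnitine shuttle. At a Benjamini-Hochberg adjusted p under 0.05 in limma, 21 probe sets were called higher, 0.0677% of those tested, and 0 were called lower. The 21 probe sets named 19 genes, 0.134% of the genes tested. They were the acyl-CoA thioesterases Acot1, Acot2, Acot3 and Acot4, the mitochondrial enzymes Eci1 and Hadhb, the peroxisomal or shared Ech1, Ehhadh, Pex11a, Crat and Crot, the ω-hydroxylases Cyp4a1 and Cyp4a3, and Vnn1, Nudt7, Aldh1a1, Hdc, Aig1 and Ptprn2. At an unadjusted p under 0.05, 782 probe sets were higher and 1027 were lower in TF, and an unmoderated fit also called 0 lower. In all 19 genes every TF rat lay above every TS rat, against 71 of all genes, or 0.499%, that were separated in this direction. Because the 19 were called by this same difference in these rats, their separation largely follows from that choice and adds no support.

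**Figure D1:**
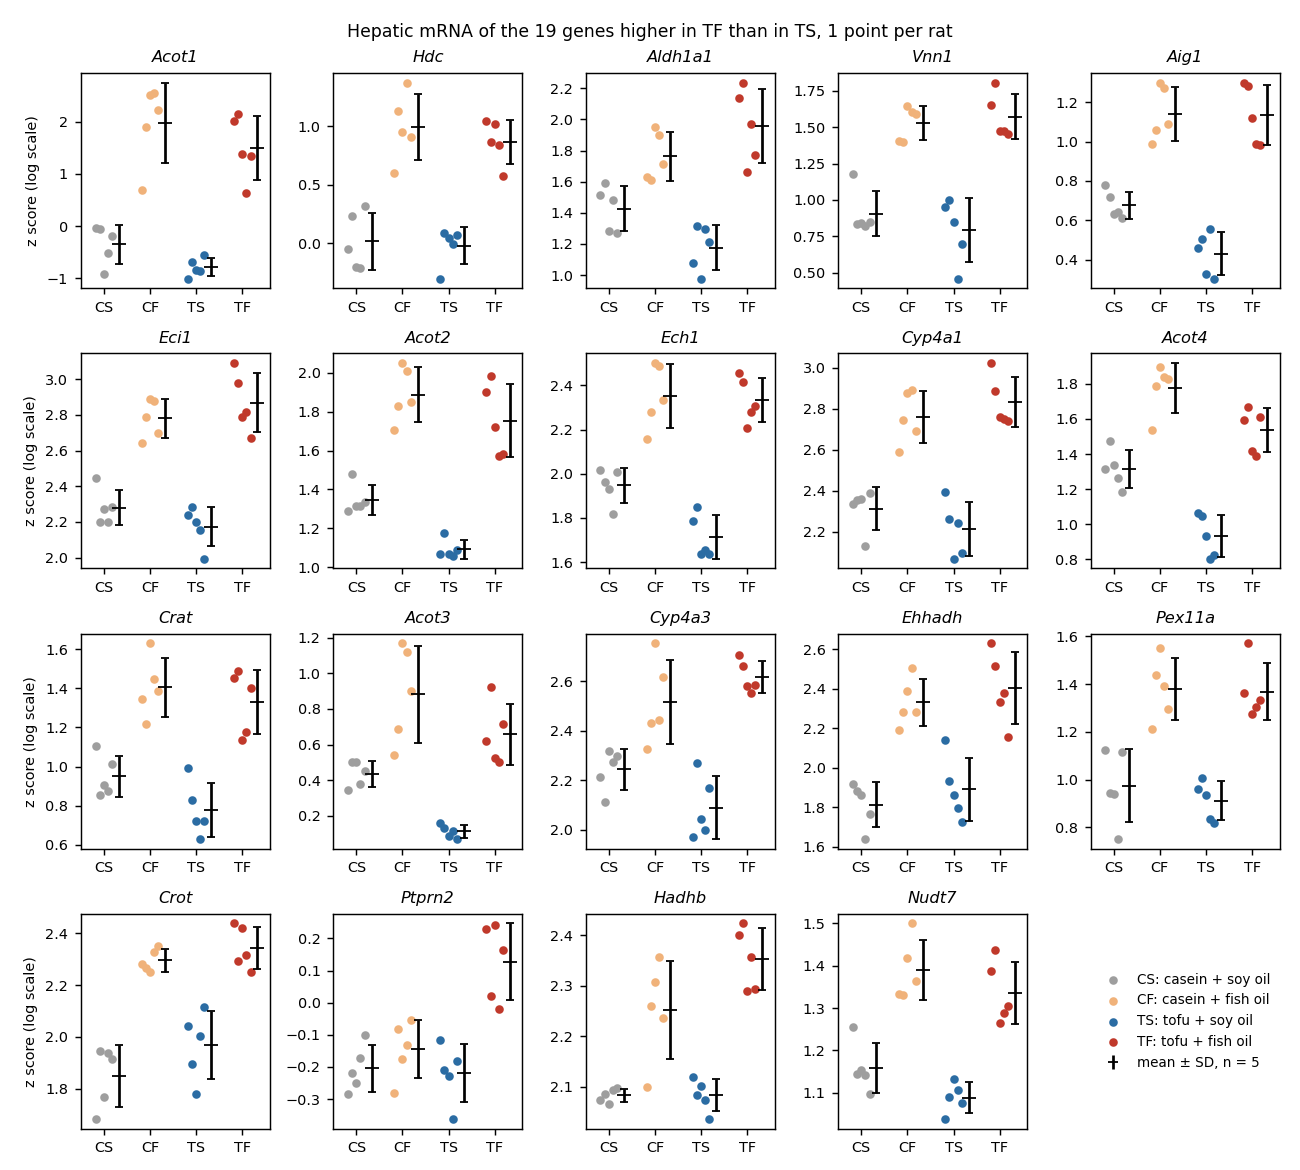
Hepatic z score (vertical axis, log scale, a separate range in each panel) of the 19 genes called higher in TF than in TS, with 1 point per rat in the 4 diet groups and the mean ± SD (n = 5) beside the points. In each panel the 5 TF rats lie above the 5 TS rats, and Acot1 has the widest gap, with a TS mean of -0.79 and a difference of 2.29.

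Acyl-CoA thioesterases, which split acyl-CoA into free fatty acid and coenzyme A, held the largest difference. Acot1, the cytosolic member, read -1.01, -0.68, -0.84, -0.86 and -0.56 in rats TS-1, TS-2, TS-4, TS-5 and TS-7. It read 2.02, 2.16, 1.38, 0.63 and 1.35 in rats TF-3, TF-4, TF-5, TF-6 and TF-7. Every TS rat was below the middle of its array and every TF rat above it, with the TF rats spread more widely (SD 0.61 against 0.17, n = 5 each). The difference was 2.29 in z (standard error 0.31, 95% interval 1.64 to 2.95, adjusted p = 0.00197 from limma).

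Acot2, the mitochondrial thioesterase, was measured by 3 probe sets, and all 3 were called higher in TF. The brightest rose from 1.09 ± 0.05 to 1.75 ± 0.19 (SD, n = 5 each), a 3.11-fold difference. Its values were 1.07, 1.18, 1.07, 1.06 and 1.09 in the TS rats and 1.90, 1.99, 1.72, 1.57 and 1.58 in the TF rats, so that the lowest TF rat was well above the highest TS rat. The differences in z of the 3 probe sets were 0.66, 0.65 and 0.58. The peroxisomal thioesterases Acot4 and Acot3 were 2.82-fold and 2.55-fold higher in TF, with adjusted p of 0.00106 and 0.0462. Acot3 was the call nearest to the threshold, and 15 of the 20 fits without 1 rat ended it, with an adjusted p of at most 0.149 and a difference of 0.48 to 0.58 in z over all settings. Among 14 listed thioesterases 10 were measured, of which 4 were called, 9 had a difference above 0 and the median was 0.18, against -0.0046 over all genes. Of the members that were not called, Acot7 had a difference of 0.24, Acot12 of 0.13 and Acot8 of 0.11, while Acot9 was at 0.0016 and Them4 at -0.02.

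The 4 called thioesterases lie close together on chromosome 6 in the order Acot2, Acot1, Acot4 and Acot3, with the ribosomal protein-like gene Rpl23al8 between Acot1 and Acot4, and with Acot5 and Acot6 next. Because the members are related in sequence and 1 probe set of the array carries more than 1 symbol of the family, signal may be shared between them. The start regions of called genes are shown because these genes rose together. In RefSeq windows of 300 bases on GRCr8, 250 before and 50 after the start of the gene, a repeat of AGGTCA with 1 base between the copies, the arrangement bound by PPARα with its partner RXR, was searched on both strands with up to 2 mismatches in the 12 positions. Of the 19 genes 16 had a window, and 2 of these (12.5%) held a match, against 3.77% of 33469 windows in the table. Cyp4a1, Ech1 and Vnn1 had no window. Acot4 had a match with 1 mismatch, 13 to 1 bases before the start on the opposite strand. Of all windows 0.439% held a match with at most 1 mismatch, at any place in the window. Crat had a match with 2 mismatches, 223 to 211 bases before the start on the strand of the gene. Acot1, the gene with the largest difference, had none. The windows of these 3 genes are at chr6:109367024-109367323 on the forward strand for Acot1, at chr6:109399604-109399903 on the forward strand for Acot4 and at chr3:34087050-34087349 on the reverse strand for Crat. Capitals mark the matched copies of the motif, and a match is a likeness of letters only.
Acot1: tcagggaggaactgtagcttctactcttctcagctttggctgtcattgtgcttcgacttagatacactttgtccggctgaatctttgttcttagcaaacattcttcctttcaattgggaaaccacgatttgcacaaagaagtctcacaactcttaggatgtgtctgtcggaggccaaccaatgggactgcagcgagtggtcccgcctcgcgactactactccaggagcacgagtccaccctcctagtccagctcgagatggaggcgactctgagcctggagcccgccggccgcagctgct
Acot4: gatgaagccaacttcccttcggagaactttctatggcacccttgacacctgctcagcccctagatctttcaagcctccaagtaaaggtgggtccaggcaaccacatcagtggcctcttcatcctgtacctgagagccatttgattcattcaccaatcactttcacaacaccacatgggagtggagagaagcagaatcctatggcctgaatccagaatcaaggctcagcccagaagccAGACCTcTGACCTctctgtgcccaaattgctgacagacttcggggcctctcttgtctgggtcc
Crat: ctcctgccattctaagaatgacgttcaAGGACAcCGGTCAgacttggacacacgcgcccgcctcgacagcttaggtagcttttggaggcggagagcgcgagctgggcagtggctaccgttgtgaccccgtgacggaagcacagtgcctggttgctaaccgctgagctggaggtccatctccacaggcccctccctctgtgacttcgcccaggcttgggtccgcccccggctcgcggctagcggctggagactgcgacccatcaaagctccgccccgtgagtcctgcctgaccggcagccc

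Mitochondrial β-oxidation shortens fatty acids to acetyl-CoA, and 2 of its 18 listed genes, all measured, were called higher in TF. Eci1, the isomerase that moves double bonds so that unsaturated fatty acids can enter the cycle, read 2.24, 2.28, 2.20, 2.16 and 1.99 in the TS rats and 3.09, 2.98, 2.79, 2.81 and 2.67 in the TF rats. The groups did not overlap, and the difference was 3.30-fold (0.69 in z, adjusted p = 0.000219). Its other probe set, with a lower signal, had a difference of -0.05 with a standard error of 0.24. Hadhb, the thiolase subunit of the trifunctional protein, was 1.59-fold higher, from 2.08 ± 0.03 to 2.35 ± 0.06 (SD, n = 5 each), with an adjusted p of 0.0109. Without rat TF-3 its adjusted p was 0.0519.

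The remaining β-oxidation genes were not called, though 17 of the 18 had a difference above 0 and 11 had one with an unadjusted p under 0.05. The same held for 2.41% of all genes, of which 46.7% had a difference above 0. Decr1, a reductase for unsaturated fatty acids, differed by 0.32 in z and Hadha, the partner subunit of Hadhb, by 0.20. Acaa2, a thiolase, differed by 0.17. The dehydrogenases of the first step, Acadm, Acads, Acadvl and Acadl, had differences of 0.13, 0.15, 0.11 and 0.06. The median over the 18 genes was 0.13, and the lowest was Acad9 at -0.05.

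Peroxisomes begin the breakdown of very long fatty acids, and 5 of 19 measured genes of peroxisomal oxidation and growth were called higher in TF. Ech1, a dienoyl-CoA isomerase of unsaturated fatty acid breakdown, read 1.79, 1.85, 1.64, 1.66 and 1.64 in the TS rats and 2.46, 2.42, 2.21, 2.28 and 2.31 in the TF rats. Both groups were tight, with SDs of 0.10, and the difference was 2.91-fold (adjusted p = 0.000219). Ehhadh, the bifunctional enzyme of the middle steps, was 2.41-fold higher with an adjusted p of 0.0291, and its TF rat nearest to TS, TF-7 at 2.15, was just above the highest TS rat, TS-1 at 2.14. Pex11a, which takes part in peroxisome division, was 2.20-fold higher, and its dimmer probe set differed by 0.54 with an adjusted p of 0.378.

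Of the peroxisomal genes that were not called, Decr2 had a difference of 0.26, the transporter Abcd3 of 0.19 and the hydroxylase Phyh of 0.15. Catalase (Cat) was at -0.0014. The list as a whole had 17 of 19 genes above 0 and a median of 0.14. Nudt7, a peroxisomal hydrolase of coenzyme A that was in none of the lists, was 1.53-fold higher, from 1.09 ± 0.04 to 1.34 ± 0.07. Its adjusted p was 0.0299.

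Carnitine acyltransferases pass acyl groups between coenzyme A and carnitine. Crat, which acts on short chains, was 2.58-fold higher in TF, and Crot, which acts on the medium chains leaving peroxisomes, was 1.91-fold higher, with adjusted p of 0.0104 and 0.0208. In Crat the TS rats read 0.99, 0.83, 0.72, 0.63 and 0.72 and the TF rats 1.45, 1.49, 1.14, 1.17 and 1.40. TF-5 was the lowest TF rat and TS-1 the highest TS rat, and without rat TF-3 the adjusted p was 0.0511. All 9 genes of the carnitine list had a difference above 0, with a median of 0.21. Those not called included Cpt2, the inner mitochondrial acyltransferase, at 0.28, the carnitine transporter Slc22a5 at 0.22 and the translocase Slc25a20 at 0.21. Cpt1a, the outer membrane enzyme that controls entry into mitochondria, was at 0.06. The brighter of the other probe sets of Crot differed by 0.39 without being called.

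Microsomal ω-hydroxylation opens a second route of fatty acid breakdown, and its genes went in both directions. Cyp4a1 read 2.39, 2.26, 2.07, 2.25 and 2.10 in the TS rats and 3.02, 2.89, 2.76, 2.75 and 2.74 in the TF rats, which was 2.89-fold higher (adjusted p = 0.000658). Cyp4a3 was 2.48-fold higher, from 2.09 ± 0.13 to 2.62 ± 0.06 (SD, n = 5 each). Cyp4a8 of the same family read 0.26, 0.36, 0.54, 0.18 and 0.39 in the TS rats and -0.43, 0.05, -0.27, 0.10 and -0.25 in the TF rats. Every TF rat was below every TS rat, and the difference of -0.51 in z had an adjusted p of 0.319. When the probe sets of each gene were averaged in place of taking the brightest, Cyp4a8 was called lower (-0.48 in z, adjusted p = 0.0463). The genes of the CYP4F family ran from -0.08 for Cyp4f17 to 0.24 for Cyp4f5, and the median of the 12 measured genes was -0.0038.

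**Figure D2:**
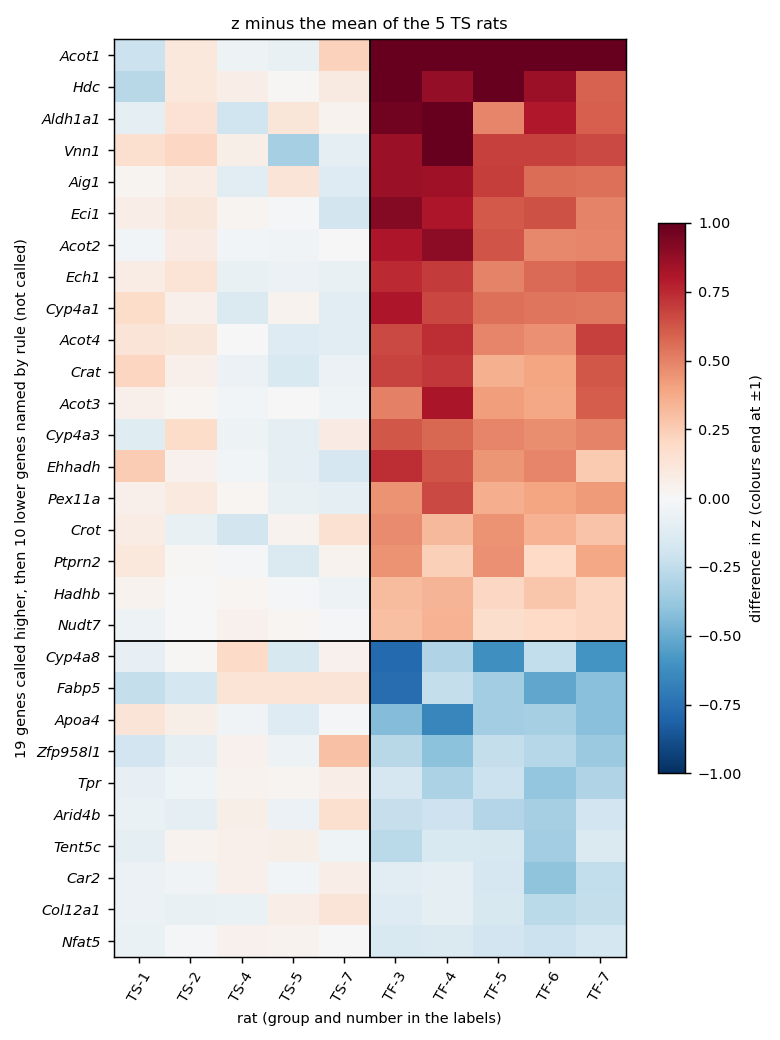
Difference in z from the mean of the 5 TS rats (colour, red higher and blue lower, ending at ±1) for the 19 genes called higher in TF and the 10 lower genes that were named by rule and not called, with 1 column per rat. TF-3 or TF-4 is the highest TF rat in all but 1 of the 19 called genes, and Cyp4a8, Fabp5 and Apoa4 are blue in all 5 TF rats.

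The TF rats differed in how far they lay from TS. TF-4 was the highest of the 5 TF rats in 10 of the 19 called genes and TF-3 in 8, and TF-5 was the highest in 1. The mean z over the 19 genes was 1.87 in both TF-3 and TF-4 and 1.61 to 1.66 in the other TF rats, against 1.03 to 1.15 in the TS rats. TF-3 was 1 of the 2 rats of TF and TS with a low 5′ β-actin control, and TF-4 was among the 3 arrays least correlated with the rest. Without rat TF-3, 13 of the 21 probe sets were still called. A fit of the 16 arrays without a low 5′ β-actin value kept 14 of the 21 calls, and a fit of the 17 arrays without the 3 least correlated kept 8. In the fit of 17 arrays Acot1, Hdc, Vnn1 and Cyp4a3 were among those that lost the call (adjusted p = 0.0690, 0.169, 0.0543 and 0.0607). All 21 probe sets were higher in TF in both fits, with median differences of 0.61 and 0.57.

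Beyond these enzymes, 1 of 27 other known targets of PPARα was called. Vnn1, a pantetheinase that frees the precursor of coenzyme A, read 0.95, 1.0004, 0.85, 0.46 and 0.69 in the TS rats and 1.65, 1.80, 1.47, 1.47 and 1.45 in the TF rats, a 3.82-fold difference (adjusted p = 0.00108). TS-5 was the lowest of all, and the TF rats lay close together apart from TF-3 and TF-4. Among the members that did not pass, Cidea, a protein of lipid droplets, differed by 0.46 in z with an adjusted p of 0.0671, and Retsat, a retinol saturase, also by 0.46 with 0.647. Plin5 differed by 0.21, Angptl4 by 0.16 and Fabp1 by 0.06. The fasting hormone Fgf21 was at 0.01, Ppara itself at -0.02 and the pyruvate dehydrogenase kinase Pdk4 at -0.06. The median over the 27 genes was 0.06, with 18 above 0.

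Ketone body genes were all above 0 and none was called. The 6 measured had a median of 0.13, with Acat1, the thiolase at the start of the pathway, at 0.19 and Bdh1, the dehydrogenase that makes 3-hydroxybutyrate, at 0.05. The 14 acyl-CoA synthetases measured had a median of 0.03 and none reached an unadjusted p under 0.05, and Acsl1, the main long-chain form of liver, was at 0.06. Of the 35 measured genes of oxidative phosphorylation 30 had a difference above 0, against 46.7% of all genes. All 35 differences were small, between -0.09 and 0.08. In the TCA cycle 11 of 21 were above 0, with a median of 0.0009.

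**Figure D3:**
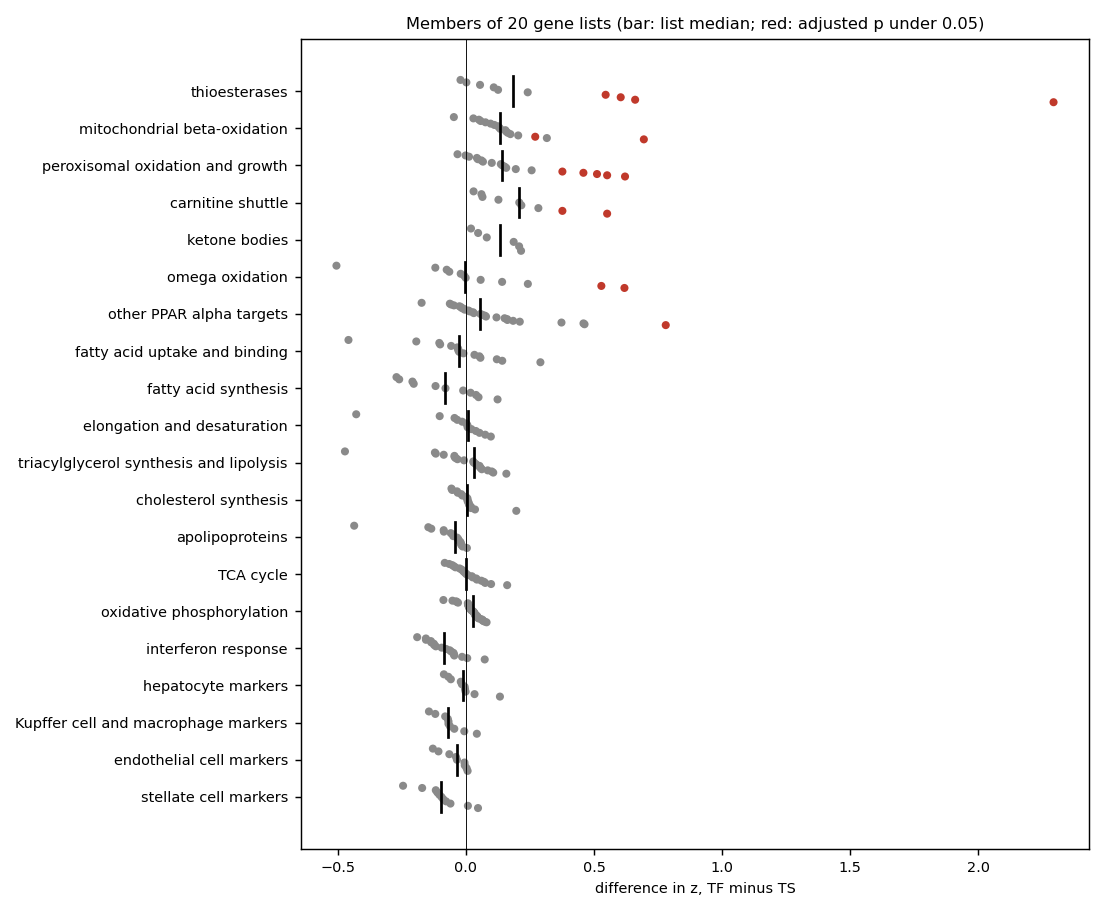
Difference in z (TF minus TS, horizontal axis) of each measured member of 20 gene lists, with 1 point per gene, the list median as a black bar and called genes in red. Of the lists plotted, those of thioesterases, mitochondrial and peroxisomal oxidation, the carnitine shuttle, omega oxidation and other PPARα targets hold called genes. The medians of thioesterases, mitochondrial β-oxidation and the carnitine shuttle are 0.18, 0.13 and 0.21, and those of the plotted lists of lipid synthesis, energy metabolism and the 4 cell types lie between -0.10 and 0.03.

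Aldh1a1, Hdc, Aig1 and Ptprn2 were called without being part of these pathways. Aldh1a1, which oxidizes retinaldehyde to retinoic acid, read 1.08, 1.32, 0.98, 1.30 and 1.21 in the TS rats and 2.14, 2.23, 1.66, 1.97 and 1.77 in the TF rats. The 3.82-fold difference had an adjusted p of 0.00197, and it was the only call among 26 measured genes of glutathione metabolism and the Nrf2 response, where the median was 0.03. In the fit of the 16 arrays without a low 5′ β-actin value its adjusted p was 0.0657. Aig1, a hydrolase of branched fatty acid esters, was 3.34-fold higher, from 0.43 ± 0.11 to 1.13 ± 0.15 (SD, n = 5 each), with an adjusted p of 0.000219. Its dimmer probe set differed by 0.05. Ptprn2, a protein of secretory granules, rose by 0.35 from a TS mean of -0.22, at an adjusted p of 0.0291.

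Hdc, which makes histamine from histidine, read -0.30, 0.09, 0.05, -0.0044 and 0.08 in the TS rats and 1.04, 0.86, 1.02, 0.84 and 0.58 in the TF rats. Thus TS was around the middle of the array, with TS-1 lowest, and all TF rats were above it. The difference was 0.89 in z (95% interval 0.61 to 1.17, adjusted p = 0.00665), the only call among 41 measured genes of amino acid breakdown and the urea cycle, which had a median of 0.03. Without the arrays with a low 5′ β-actin value its adjusted p was 0.0592. Mast cells also express Hdc. Of 14 measured markers of lymphocytes and mast cells 13 had a mean at or below the highest array median, and none was called. At an unadjusted p under 0.05 in limma 3 of the 14 were lower in TF, or 21.4%, against 2.76% of all genes, and 0 were higher. The mast cell genes Cpa3, Mcpt1, Kit and Ms4a2 had differences of -0.20, -0.12, -0.01 and 0.10. Whether the number of mast cells differed was not tested. The mean of the 14 markers was -0.33 to -0.14 in the TS rats and -0.28 to -0.18 in the TF rats.

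No gene was called lower in TF. The lowest adjusted p of any probe set with a lower mean was 0.0826, and 89 genes (0.626%) had every TF rat below every TS rat, against 0.499% in the other direction. Among the genes with no overlap, an unadjusted p under 0.01 and a TS mean above the highest array median, the largest differences after Cyp4a8 were those of Fabp5 and Apoa4. Fabp5, a fatty acid binding protein, was at 1.57 ± 0.19 in TS and 1.11 ± 0.20 in TF (SD, n = 5 each, adjusted p = 0.378). Apoa4, an apolipoprotein of triacylglycerol-rich particles, read 2.81, 2.74, 2.65, 2.56 and 2.67 in the TS rats and 2.26, 2.03, 2.34, 2.36 and 2.27 in the TF rats. The highest TF rat was below the lowest TS rat, and the difference was -0.44 in z with an adjusted p of 0.352. The others named by this rule were Zfp958l1 (-0.32 in z), Tpr (-0.28), Arid4b (-0.25), Tent5c (-0.21), Car2 (-0.21), Col12a1 (-0.18) and Nfat5 (-0.18), with adjusted p of 0.196 to 0.637.

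**Figure D4:**
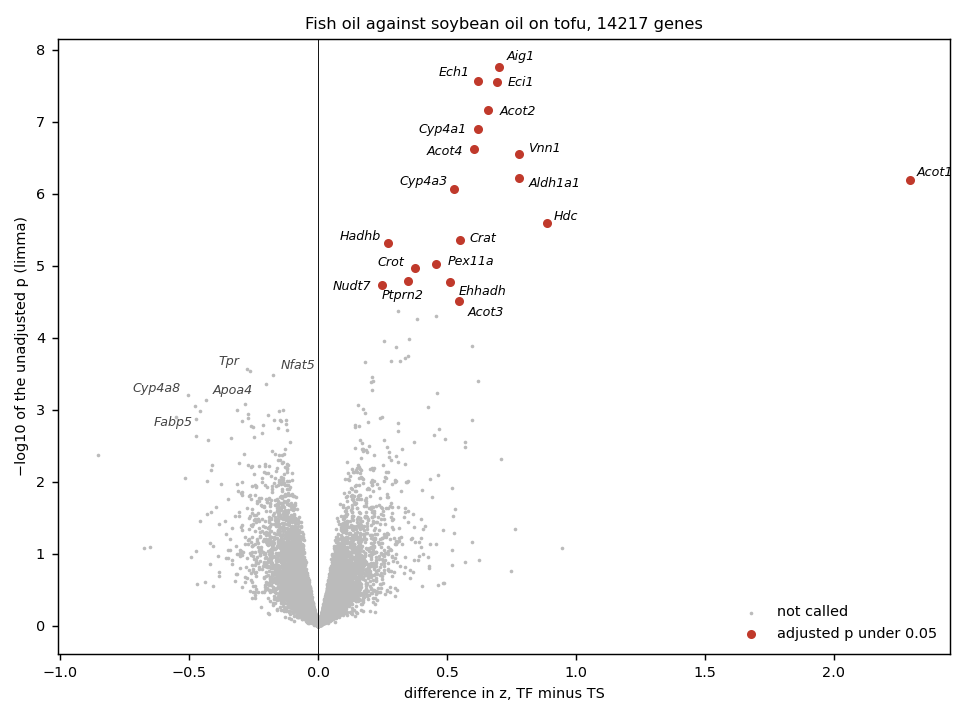
Difference in z (TF minus TS, horizontal axis) against -log10 of the unadjusted p from limma (vertical axis) for 14217 genes, with the 19 called genes in red and 5 of the lower genes labelled in grey. All red points lie on the right, and no gene on the left reaches their height.

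Genes of lipid synthesis had mostly small differences, and none was called. In fatty acid synthesis 7 of 11 measured genes were below 0, against 53.3% of all genes, with a median of -0.08. At an unadjusted p under 0.05 in limma 2 of the 11 were lower, or 18.2%, against 2.76% of all genes. Acly, which makes cytosolic acetyl-CoA, was at -0.27, Fasn, fatty acid synthase, at -0.26 and Acaca, acetyl-CoA carboxylase, at -0.20. These were 1.59-fold, 1.56-fold and 1.42-fold lower in TF. The desaturase Scd differed by -0.43 in z, or 2.09-fold (adjusted p = 0.511 from limma). Its means were 2.38 ± 0.25 in TS and 1.95 ± 0.26 in TF (SD, n = 5 each), with overlapping rats. Pnpla3, which remodels the lipids of droplets, differed by -0.47 from a TS mean already at -0.05. The regulators Mlxipl (ChREBP) and Srebf1 were at -0.15 and -0.07, and the glycolytic enzyme Pklr, a known target of ChREBP, was at -0.24. Every TF rat was below every TS rat in Acaca, Pnpla3, Mlxipl and Pklr, as in 0.626% of all genes. The rats overlapped in Acly, Fasn, Scd and Srebf1.

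Cholesterol synthesis was nearly level. Its 17 measured genes had a median of 0.0058 and ran from -0.06 for Fdft1 to 0.20 for Lss, and none reached an unadjusted p under 0.05. In bile acid synthesis and transport, Cyp7a1, the rate-limiting enzyme, was at -0.13 with rats spread widely (SD 0.45 in TS and 0.27 in TF, n = 5 each), and Cyp8b1, which sets the share of cholic acid, was at 0.19. Of 16 apolipoprotein and assembly genes 15 were below 0, against 53.3% of all genes, with a median of -0.04. Besides Apoa4, the lowest were Tm6sf2 at -0.15 and Apob at -0.14, and none was called.

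Markers of other liver cells had small differences, most of them below 0. Of 10 Kupffer cell markers 9 were below 0 with a median of -0.07, of 9 endothelial markers 7 with -0.04 and of 11 stellate cell markers 9 with -0.10. Of all genes 53.3% were below 0. None of the markers was called. At an unadjusted p under 0.05 in limma 1 Kupffer cell, 2 endothelial and 0 stellate cell markers were lower in TF. These were 10%, 22.2% and 0% of each list, against 2.76% of all genes. The mean of the Kupffer cell markers was 1.23 to 1.41 in the TS rats and 1.19 to 1.39 in the TF rats, and that of the stellate cell markers was 0.52 to 0.58 and 0.37 to 0.57. Of 18 interferon response genes 16 were below 0, with a median of -0.09, and the lowest was Mx2 at -0.19. Of these 18 genes 2, or 11.1%, were lower at an unadjusted p under 0.05 in limma.

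The same exchange of oils on casein gave a comparison that shares no rat with TF and TS, although all 4 groups share the estimate of the spread. On casein 13 probe sets were called higher in CF than in CS, or 0.0419%, and 1 was called lower. In all, 12 probe sets were called on both backgrounds, which was 57.1% of the calls on tofu and 85.7% of those on casein. The 21 probe sets called on tofu all had a difference above 0 on casein, as did 53.0% of all probe sets. Their median difference was 0.60 on tofu and 0.45 on casein. Because the 21 were chosen by their difference on tofu, which favours large values there, the 2 medians do not compare the backgrounds. Acot1 differed by 2.29 on tofu and 2.33 on casein and Hdc by 0.89 and 0.97, and the differences between the backgrounds, -0.03 and -0.08, had 95% intervals of -0.96 to 0.89 and -0.48 to 0.31. Those of Eci1 were 0.69 and 0.50, of Vnn1 0.78 and 0.62, of Ehhadh 0.51 and 0.52 and of Crot 0.38 and 0.45.

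**Figure D5:**
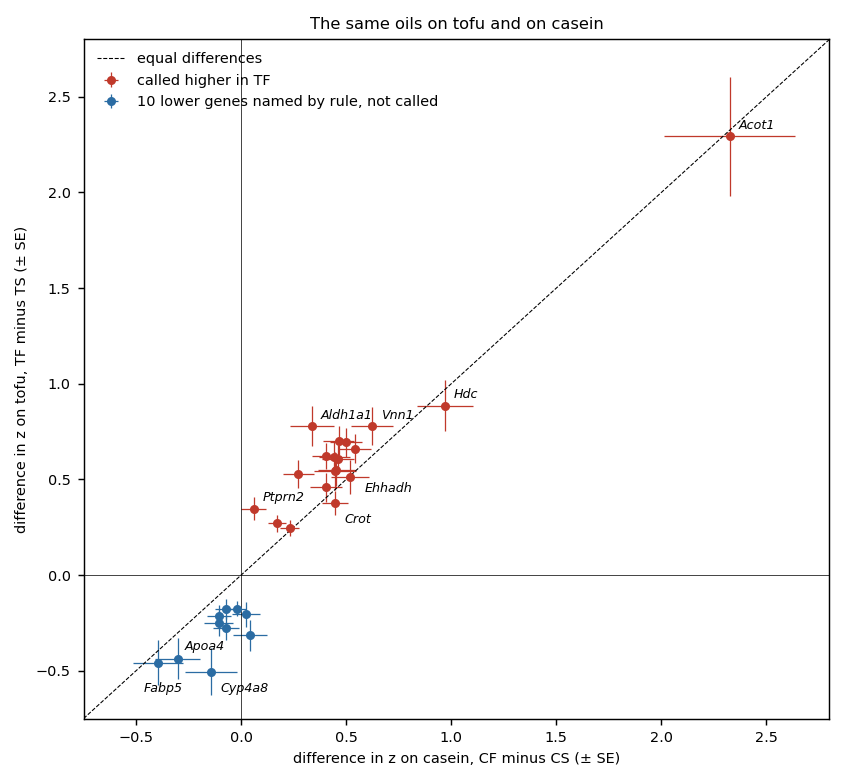
Difference in z between fish oil and soy oil on casein (horizontal axis, CF minus CS) and on tofu (vertical axis, TF minus TS), each ± SE, for the 19 genes called higher in TF (red) and the 10 lower genes named by rule (blue), with a dashed line at equal differences. Acot1 and Hdc lie near the line, and Aldh1a1 (0.78 on tofu, 0.34 on casein) and Ptprn2 (0.35 and 0.06) lie above it.

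Aldh1a1 had the widest gap among the called genes, 0.78 on tofu and 0.34 on casein. The interaction, which tests whether the oil difference itself differed between tofu and casein, gave 0.44 for Aldh1a1 (95% interval 0.13 to 0.76). Its unadjusted p was 0.00799 and its adjusted p in limma 0.99999. Ptprn2 had 0.35 on tofu and 0.06 on casein, Cyp4a3 0.53 and 0.27, Ech1 0.62 and 0.41 and Aig1 0.70 and 0.46. These 5 of the 21 probe sets had an unadjusted interaction p under 0.05, and none passed adjustment. The choice of the 21 by TF minus TS also bears on these unadjusted values. No probe set was called for the interaction, at a lowest adjusted p of 0.484, while 1065 had an unadjusted p under 0.05. For the 21 probe sets the 95% intervals of the interaction reached from 0.13 to 0.92 in z to either side of the estimate.

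The calls on casein that were not shared with tofu came from Cyp2j4 and Pnpla3. Cyp2j4, an epoxygenase of polyunsaturated fatty acids, differed by 0.38 on casein and by 0.31 on tofu, where its adjusted p was 0.0598. A dimmer probe set of Pnpla3 was lower by 0.62 on casein, and on tofu its means were -0.52 in TS and -0.55 in TF. Nqo1, a quinone reductase and target of Nrf2, had the lowest interaction p of the genes. It differed by -0.22 on tofu and by 0.52 on casein.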

How the data were processed

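Liver RNA was hybridized to the Affymetrix rat genome array, 1 array per rat. The deposited values are scores (z) that the authors made by standardizing the log signals of each array to its own distribution with the SuperNORM service. Its version and how it treats background and combines the cells of a probe set are not given in the sources used here.

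The table has 31099 probe sets, of which 57 are controls and were not used, and 31039 of the other 31042 had at least 3 values per group. A single symbol of the array annotation, updated to current rat symbols, was available for 20825, several for 436 and none for 9778. Only those with 1 symbol were named. The 4 group means were fitted to all 20 arrays in a linear model with limma 3.58.1 in R 4.3.3, with moderated variances and Benjamini-Hochberg adjustment over all probe sets (threshold 0.05). The workflow was tested on simulated data. The genes named were the called genes (up to 25 a direction), up to 10 in a direction with few calls (unadjusted p under 0.01, no overlap of the groups, higher mean above the highest array median), up to 4 per list of 39 lists with 625 measured genes and the 5 with the lowest interaction p. Some further list members were named after their values were seen, as background to the same lists. The comparison, the lists and the rules were chosen with earlier results of these data known. A list is described by counts and its median, without a set test. Alternatives were other normalizations, probe set filters, variance models, thresholds, blocks and subsets of arrays, and leaving out each rat. Precision is limited by how many arrays there are, and the median standard error of TF minus TS was 0.0754 in z. The labels name each array as a separate rat.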

Additional observations from a re-analysis of the deposited data

Results flagged for a closer look

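In 6 of 70 groups of 5 rats, 1 rat stood apart from the other 4 by Dixon's test, and chance alone flags about 1 in 20 groups. The 70 groups covered the array checks and a part of the named genes. Hdc in rat TS-1 was at -0.30, against -0.0044 to 0.09 in the other TS rats. Acot2 in rat TS-2 was at 1.18, against 1.06 to 1.09. The mean correlation of the array of rat TS-7 with the other arrays was 0.943, against 0.952 to 0.954. The 3′ minus 5′ difference of β-actin was 0.789 in TS-1, against 0.501 to 0.526, and 0.787 in TF-3, against 0.468 to 0.515. The 3′ minus 5′ difference of GAPDH was 0.0864 in TF-3, against 0.0105 to 0.0267. Without rat TS-1 the calls of Hdc and of 17 other probe sets of the 21 were kept, and without TF-3 the call of Hdc was kept (adjusted p = 0.0332 in limma).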

How the results depend on the processing

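All 21 probe sets called higher in TF had a higher mean in TF under each of 11 other settings in which they were tested. The same held in each of the 20 fits without 1 rat. The direction of TF minus TS was followed through the settings for 73 of the named genes, and none reversed. These were the genes called or filled by rule, those with the lowest interaction p and list members with an unadjusted p under 0.05 in limma. The 21 probe sets and these genes were thus largely chosen by a low p for the same difference in the same rats. A reversal was therefore unlikely from the start. For the other named genes, many of them near 0, it was not followed. The number of probe sets called for TF minus TS was 21, and it was 13 to 24 in the fits without 1 rat, 12 in the fit of 17 arrays without the 3 least correlated, 10 with only the 10 TF and TS arrays and 312 under the methods' thresholds (an unadjusted p under 0.01 and a difference above 0.2 in z, applied here to the limma fit). With a replicate block for the rat number, 4 were called on tofu and 6 on casein. The labels do not say what a number marks. The deviations of TS and TF rats of the same number correlated at -0.028, 0.061 and -0.014, and those of the 5 such pairs of CS and CF rats at 0.049 to 0.13, of which 1 was above 0.1. On casein 8 of 10 rats correlated best with the rat of their own number, a hint from the data and not from the design, and on tofu 1 of 10. The number called lower was 0, and it was 0 to 3 in the fits without 1 rat (above 0 without CF-1, TS-1, TS-5 or TF-5), 2 among bright probe sets, 1 with a variance trend and robust estimation, 1 with a 5′ actin block, 1 at an adjusted p under 0.1, 3 in the fit of 17 arrays and 144 under the methods' thresholds. The 3 in the fit without TF-5 included Prl2a1 (-0.59 in z). In these counts the other probe sets called lower by adjusted p had no single symbol. The fit on averaged probe sets, which called Cyp4a8 lower, is not among the counts. Under the methods' thresholds the lower probe sets included those of Cyp4a8, Fabp5 and Apoa4. For CF minus CS the number was 14, and it was 6 to 22 without 1 rat (22 without CF-1, and 6 to 9 without CS-5, CS-6, CS-7, CF-5, CF-6 or CF-7), 29 among bright probe sets, 8 without moderation, 24 with a variance trend, 27 with array weights, 25 at an adjusted p under 0.1 and 185 under the methods' thresholds. The interaction had 0 calls, also in each fit without 1 rat, and 176 under the methods' thresholds.

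Eci1, Aig1 and the brighter 2 probe sets of Acot2 kept their calls in 11 other settings and in the 20 fits without 1 rat. The fit on averaged probe sets is not among these. The other probe sets of Eci1 and Aig1, with lower signals, differed by -0.05 and 0.05 in z between TF and TS. Leaving out 1 rat ended the call of Crat and of Hadhb only for TF-3 (adjusted p = 0.0511 and 0.0519). It ended that of Crot for TS-2, TS-4, TS-5, TF-3 and TF-5 (at most 0.0915) and that of Pex11a for TS-4, TS-5, TS-7, TF-3 and TF-4 (at most 0.0830). That of Ptprn2 ended for TS-2, TS-4, TS-5, TS-7, TF-3, TF-5 and TF-7 (at most 0.120), and that of Ehhadh for every TS and TF rat but TS-1 and TF-7 (at most 0.124). The call of Nudt7 ended in 9 of the 20 fits (at most 0.103), that of the third probe set of Acot2 in 12 (at most 0.134) and that of Acot3 in 15 (at most 0.149). Acot1, Hdc, Aldh1a1 and Vnn1 kept theirs in all 20. Acot1, Hdc and Vnn1 lost it in the fit of 17 arrays (0.0690, 0.169 and 0.0543), as did Cyp4a3 (0.0607). Aldh1a1 and Vnn1 lost it with only the 10 TF and TS arrays (0.0708 and 0.0587). With the replicate block for the rat number, only Eci1, Aig1 and the brighter 2 probe sets of Acot2 kept the call. There the adjusted p from limma was 0.151 for Acot1, 0.171 for Hdc and Aldh1a1, 0.152 for Cyp4a3 and 0.0720 for Vnn1. Among the same settings and fits, Ech1, Cyp4a1 and Acot4 lost the call only with this block (0.0720, 0.0733 and 0.0733).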

Other observations

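The gene groups not described above held 0 calls in TF against TS. For the counts that follow, 46.7% of all genes were above 0 and 53.3% below. Drug-metabolising cytochromes had 20 of 27 measured genes above 0 and a median of 0.04, with Cyp2j4 at 0.31 and Cyp2a1 at 0.21. Among 16 genes of fatty acid uptake and binding 6 were above 0, with the transporter Slc27a2 at 0.14 and Cd36 at -0.03. Elongation and desaturation had a median of 0.0061 and triacylglycerol synthesis and lipolysis one of 0.03, with the lipases Mgll and Pnpla2 at 0.16 and 0.11. Of 15 genes of glycolysis and gluconeogenesis 10 were below 0. The amino acid limitation response had a median of 0.01, and its largest difference was that of Nupr1, a stress-induced regulator of chromatin, at -0.30 (adjusted p = 0.412 from limma). The sterol transporters Abcg5 and Abcg8 were at 0.18 and 0.21. Among eicosanoid enzymes the epoxide hydrolase Ephx2 differed by 0.43 with wide spreads (SD 0.56 in TS and 0.76 in TF, n = 5 each). Of 16 genes of the growth hormone and IGF axis 12 were below 0, with Cish at -0.38, and of 16 heat shock and chaperone genes 11, with Hspa5 at -0.10. Clock genes, acute phase proteins, iron handling and the cell cycle had medians of -0.01, -0.0037, 0.02 and 0.0043. The 3 blood markers were below 0 with a median of -0.12, and the 6 cholangiocyte markers had a median of -0.02.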
